A study of Mus musculus with 17 samples.

Results

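Fas, Casp8, Bcl2 and Bcl2l1 were followed by their symbols in the count tables, as 4 of the 988 genes measured, in all 17 libraries of mouse colon. Fas is the cell surface death receptor that Fas ligand engages, and Casp8 encodes caspase-8, the initiator caspase that the engaged receptor recruits and activates. Bcl2 and Bcl2l1, which encodes Bcl-xL, act at a later control point: their proteins sit on mitochondrial membranes and hold back the pore-forming relatives that release cytochrome c. In the intestine Fas and caspase-8 are present in epithelial cells and lymphocytes, Bcl-xL is a survival protein of epithelial cells, and Bcl2 is prominent in lymphocytes. Caspase-8 also restrains necroptosis, the inflammatory form of death that Ripk1 and Ripk3 carry out.

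The mice had been given azoxymethane, a carcinogen that induces colon tumors, by intraperitoneal injection. Kit-B6 are C57BL/6 mice, and Kit-W/sh are W-sash mice, whose inherited Kit regulatory mutation leaves adults short of mast cells and also reaches other cells that depend on Kit. There were 6 Kit-B6 and 6 Kit-W/sh tumors at postnatal week 32, after 6 injections over 6 weeks and a further 18 weeks, and 3 Kit-B6 and 2 Kit-W/sh samples of preneoplastic colon at week 14, after 3 injections over 3 weeks and a further 3 weeks. All groups had received the carcinogen, so no untreated colon is compared here, and tumors and preneoplastic colon differed in age, number of injections and tissue, which cannot be told apart. RNA was read with a targeted immuno-oncology panel, in which multiplex PCR copies a short stretch of each chosen transcript before sequencing on a MiSeq. Separate animals were not stated for the samples within a group, so the p-values describe spread among the samples deposited, part of which may be technical.

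Library totals ran from 616009 to 1399902 counts. Every library held between 115 and 371 counts of Fas, 1060 to 2411 of Casp8, 160 to 514 of Bcl2 and 472 to 2759 of Bcl2l1. If each count stood for a separate molecule, counting error alone was at most 9.33% of a Fas value and 4.60% of a Bcl2l1 value. Whether it did is not given, and the error is larger if counts are copies of fewer molecules. All 4 genes passed the filter on low counts in every comparison. Kit, the receptor that the W-sash mutation affects, stood at 264, 340 and 521 CPM (counts relative to the scaled library total) in Kit-B6 and at 125 and 113 in Kit-W/sh preneoplastic colon. In tumors the ranges overlapped, at 94.2 to 476 in Kit-B6 and 49.1 to 258 in Kit-W/sh. Cpa3, a mast cell protease, was between 0 and 9.86 CPM in 5 Kit-W/sh tumors but 460 in the one labelled Kit-W/sh tumor 2, above the 11.4 to 257 of the Kit-B6 tumors. That library therefore went against its label, and no call on the 4 genes depended on it. Epcam, an epithelial marker, was measured in every group and did not pass the test by stage (log2 fold change 0.02 ± 0.16 and -0.08 ± 0.18).

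The upstream sequences of the 3 genes that passed the test between stages are shown because Fas and Casp8 moved one way and Bcl2l1 the other. They are the 250 bases before a start site from RefSeq on GRCm38.p6, read on the gene's own strand. All 4 genes matched by symbol, and Bcl2l1 has 3 listed starts, of which the outermost is printed because its window overlaps no exon. Capitals mark the interferon regulatory factor core AANNGAAA and the STAT site TTCNNNGAA, each searched on both strands.
Fas (chr19:34290409-34290658, plus strand): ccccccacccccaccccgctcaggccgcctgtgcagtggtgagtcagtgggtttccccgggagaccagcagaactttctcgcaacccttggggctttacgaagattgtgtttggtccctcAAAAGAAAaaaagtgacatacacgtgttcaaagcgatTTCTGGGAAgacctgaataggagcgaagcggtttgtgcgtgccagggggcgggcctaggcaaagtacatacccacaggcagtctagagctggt
Casp8 (chr1:58802252-58802501, plus strand): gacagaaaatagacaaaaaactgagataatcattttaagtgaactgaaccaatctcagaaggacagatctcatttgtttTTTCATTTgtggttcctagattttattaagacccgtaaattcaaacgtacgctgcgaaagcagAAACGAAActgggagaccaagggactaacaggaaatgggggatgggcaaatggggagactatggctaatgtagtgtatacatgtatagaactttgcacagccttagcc
Bcl2l1 (chr2:152831729-152831978, minus strand): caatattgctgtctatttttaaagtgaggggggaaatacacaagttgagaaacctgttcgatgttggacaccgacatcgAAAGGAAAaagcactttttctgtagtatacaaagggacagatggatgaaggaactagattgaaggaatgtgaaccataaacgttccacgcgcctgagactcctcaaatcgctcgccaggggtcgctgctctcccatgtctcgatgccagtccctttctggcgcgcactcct
Fas held 1 interferon regulatory factor core and 1 STAT site, Casp8 held 2 cores, and the printed Bcl2l1 window held 1 core. Of 32851 windows of the same length, 21.3% held at least 1 such core and 7.02% a STAT site, so both are common sequences. The Bcl2 window, at chr1:106714291-106714540 on the minus strand, held neither, and none of these 4 windows held an NF-kB site or a p53 site, which were in 7.25% and 7.13% of all windows. The Bcl2 window was 74.8% G and C and held 7 matches to the GC box GGGCGG, which 32.7% of windows held at least once. Of the Bcl2l1 windows not printed, 1 held 1 core and 1 NF-kB site, and the other held neither. Matches are a description of these letters and not of binding. The counts were processed on another build and the amplicon positions were not given, so transcripts from different starts, and the long and short splice forms of Bcl2l1, could not be told apart.

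Fas and Casp8 were lower and Bcl2l1 was higher in tumors than in preneoplastic colon. The Casp8 calls were lost with unscaled library totals and with scaling by the reference genes Rpl13a and Tfrc. In Kit-W/sh the reference genes also ended the calls of Fas and Bcl2l1, and all calls there rested on 2 preneoplastic samples. In Kit-B6 and Kit-W/sh tumors Fas was at 0.477 and 0.485 of its preneoplastic level, Casp8 at 0.739 and 0.706, and Bcl2l1 at 1.99 and 1.72 times its level, while Bcl2 did not pass the test. In each genotype 3 of the 4 genes passed edgeR's quasi-likelihood test at an adjusted p under 0.05, where 41.1% of the 869 genes tested passed in Kit-B6 and 39.7% in Kit-W/sh. Lower genes made up 18.9% and 18.8% of those tested, and higher genes 22.2% and 20.9%. DESeq2 called the same 3 genes in both, where it called 46.4% and 44.6% of genes. Tumors and preneoplastic samples did not overlap for 29.2% of genes in Kit-B6 and 58.6% in Kit-W/sh. A stage difference was thus common on this panel, and nothing particular to these 4 genes is read from their count. No gene of the 4 passed the test between genotypes or for a genotype difference that changed with stage.

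**Figure D1:**
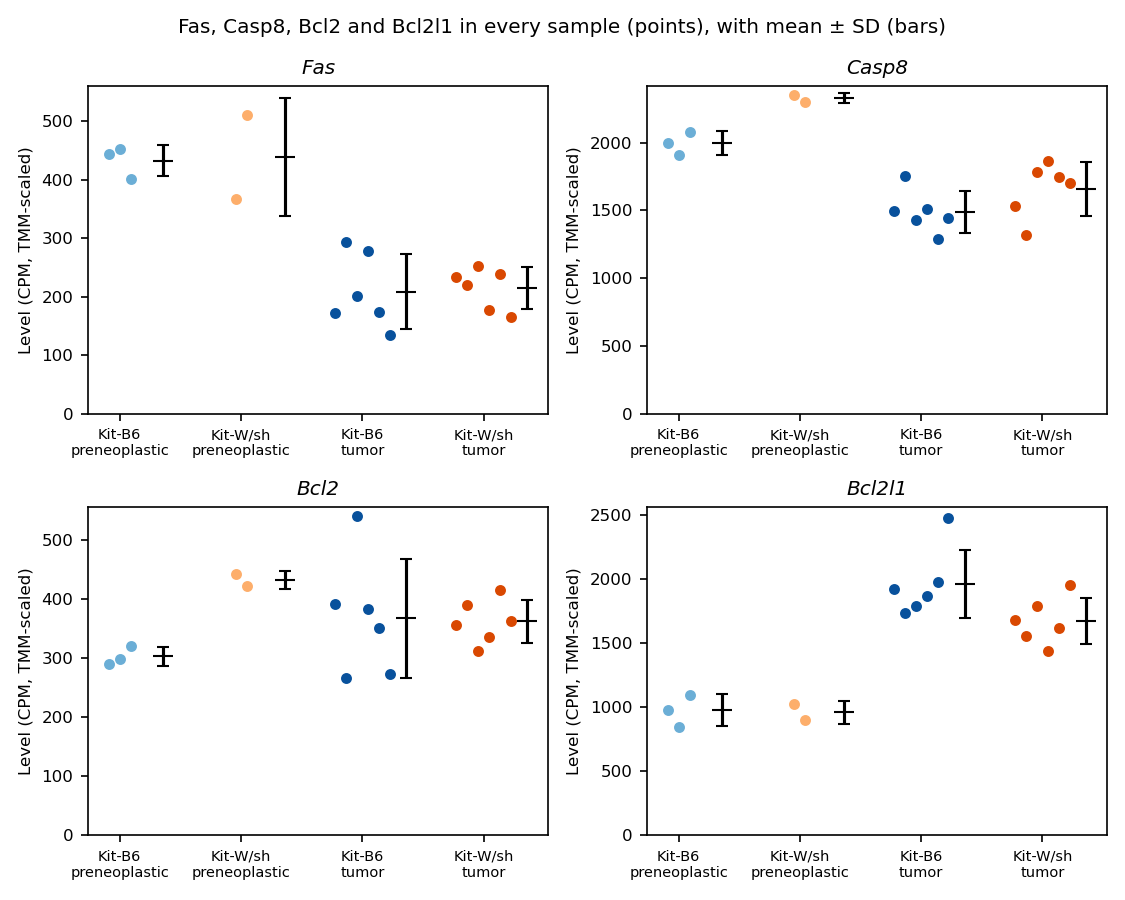
Level of Fas, Casp8, Bcl2 and Bcl2l1 in CPM (vertical axes, starting at 0) in each of the 17 libraries, by group, with replicates from left to right and the mean ± SD as a bar. All 12 tumors lie below all 5 preneoplastic samples for Fas and Casp8 and above them for Bcl2l1, while Bcl2 overlaps. Within a genotype, the stages did not overlap for 29.2% of all genes tested in Kit-B6 and 58.6% in Kit-W/sh. The share of genes that separated all 12 tumors from all 5 preneoplastic samples was not computed, so this separation is not read as unusual.

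Fas, the receptor, was at 443, 453 and 402 CPM in Kit-B6 preneoplastic colon and at 368 and 511 in Kit-W/sh preneoplastic colon. In the Kit-B6 tumors it was at 171, 293, 201, 278, 173 and 135 CPM, and in the Kit-W/sh tumors at 234, 220, 253, 177, 239 and 166. Every one of the 12 tumors was below every one of the 5 preneoplastic samples. The highest tumor was at 293 and the lowest preneoplastic sample at 368. On unscaled totals 11 of the 12 tumors were below all preneoplastic samples. The share of all genes that separated in this way over both genotypes was not computed. The group means were 439 ± 101 CPM (SD, n = 2) in Kit-W/sh and 433 ± 27.1 (SD, n = 3) in Kit-B6 preneoplastic colon, then 215 ± 35.5 (SD, n = 6) in Kit-W/sh and 209 ± 63.4 (SD, n = 6) in Kit-B6 tumors. Neighbours within a stage in that order did not differ beyond their spread. The log2 fold change by stage was -1.07 ± 0.23 (SE) in Kit-B6 (edgeR, adjusted p = 0.00198), which left 0.477 of the preneoplastic level (95% interval 0.341 to 0.667). In Kit-W/sh it was -1.04 ± 0.26 (edgeR, adjusted p = 0.00522), or 0.485 of the preneoplastic level (95% interval 0.332 to 0.708), and scaling by the reference genes Rpl13a and Tfrc ended that call (-0.88, adjusted p = 0.0792).

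Casp8, the initiator caspase, was at 1998, 1905 and 2081 CPM in Kit-B6 and at 2354 and 2302 in Kit-W/sh preneoplastic colon. The Kit-B6 tumors had 1498, 1755, 1429, 1512, 1289 and 1446 CPM, and the Kit-W/sh tumors had 1528, 1321, 1787, 1868, 1750 and 1703. Its difference between stages was smaller than that of Fas, and the highest tumor, at 1868 CPM, came close to the lowest preneoplastic sample, at 1905. The groups ranked 2328 ± 36.4 CPM in Kit-W/sh (SD, n = 2) and 1995 ± 87.9 in Kit-B6 preneoplastic colon (SD, n = 3), then 1659 ± 201 in Kit-W/sh (SD, n = 6) and 1488 ± 153 in Kit-B6 tumors (SD, n = 6). The genotypes within a stage did not pass the test. The log2 fold change was -0.44 ± 0.13 in Kit-B6 (edgeR, adjusted p = 0.0113) and -0.50 ± 0.14 in Kit-W/sh (edgeR, adjusted p = 0.0119). These calls depended on how libraries were scaled. With unscaled library totals the changes were -0.18 (adjusted p = 0.31) and -0.25 (adjusted p = 0.232), and 7 of the 12 tumors were below all preneoplastic samples. Scaling by the reference genes gave -0.23 (adjusted p = 0.52) and -0.35 (adjusted p = 0.396). Unscaled totals also moved the median of all genes tested to 0.24 in Kit-B6 and 0.34 in Kit-W/sh, and relative to that median Casp8 stood at -0.43 and -0.59.

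Bcl2l1, the survival gene for Bcl-xL, was at 979, 848 and 1097 CPM in Kit-B6 and at 1024 and 897 in Kit-W/sh preneoplastic colon. The Kit-B6 tumors had 1926, 1734, 1789, 1871, 1977 and 2480 CPM, and the Kit-W/sh tumors had 1685, 1554, 1788, 1436, 1622 and 1952. Every tumor was above every preneoplastic sample, on unscaled totals as well. The lowest tumor was at 1436 and the highest preneoplastic sample at 1097. How many of all genes separated in this way over both genotypes was not computed. The group means ran from 1963 ± 268 CPM in Kit-B6 tumors (SD, n = 6) through 1673 ± 182 in Kit-W/sh tumors (SD, n = 6) to 975 ± 124 in Kit-B6 (SD, n = 3) and 961 ± 89.8 in Kit-W/sh preneoplastic colon (SD, n = 2). The log2 fold change by stage was 1.00 ± 0.15 in Kit-B6 (edgeR, adjusted p = 0.000114), a level 1.99 times that of preneoplastic colon (95% interval 1.61 to 2.47). In Kit-W/sh it was 0.79 ± 0.17 (edgeR, adjusted p = 0.00246), a level 1.72 times as high (95% interval 1.34 to 2.21), and scaling by the reference genes ended that call (0.94, adjusted p = 0.0519).

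Bcl2 was at 290, 298 and 320 CPM in Kit-B6 and at 443 and 421 in Kit-W/sh preneoplastic colon. The Kit-B6 tumors had 391, 265, 541, 383, 350 and 273 CPM, and the Kit-W/sh tumors had 356, 389, 312, 336, 415 and 362. The Kit-B6 tumors spread on both sides of their preneoplastic samples, while all 6 Kit-W/sh tumors were below their 2. The order of the means was 432 ± 15.2 CPM in Kit-W/sh preneoplastic colon (SD, n = 2), 367 ± 100 in Kit-B6 tumors (SD, n = 6), 362 ± 36.8 in Kit-W/sh tumors (SD, n = 6) and 303 ± 15.5 in Kit-B6 preneoplastic colon (SD, n = 3). The log2 fold change by stage was 0.27 ± 0.20 in Kit-B6 (edgeR, adjusted p = 0.293) and -0.27 ± 0.22 in Kit-W/sh (edgeR, adjusted p = 0.346), and neither passed. With unscaled totals the Kit-B6 change was 0.50 and passed (adjusted p = 0.0411). The genotype-by-stage interaction was -0.53 ± 0.30 (edgeR, adjusted p = 0.73, unadjusted p = 0.0932), so a difference in direction was not established. In the order of means, neighbours overlapped within 1 SD except Kit-W/sh tumors and Kit-B6 preneoplastic colon, a pair that was not tested.

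The Kit-W/sh stage calls rested on 2 preneoplastic samples. Without Kit-W/sh preneoplastic 2, Fas, Casp8 and Bcl2l1 kept their direction at log2 fold changes of -0.79, -0.52 and 0.69, with edgeR adjusted p of 0.111, 0.0711 and 0.0511. Without Kit-W/sh preneoplastic 1, Casp8 was at -0.47 (adjusted p = 0.113), and Fas and Bcl2l1 still passed. Both fits left 1 sample in that group, which was assumed to vary like the other groups, and the number of genes called was 159 and 132 of 893 tested. No left-out library ended a Kit-B6 call.

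**Figure D2:**
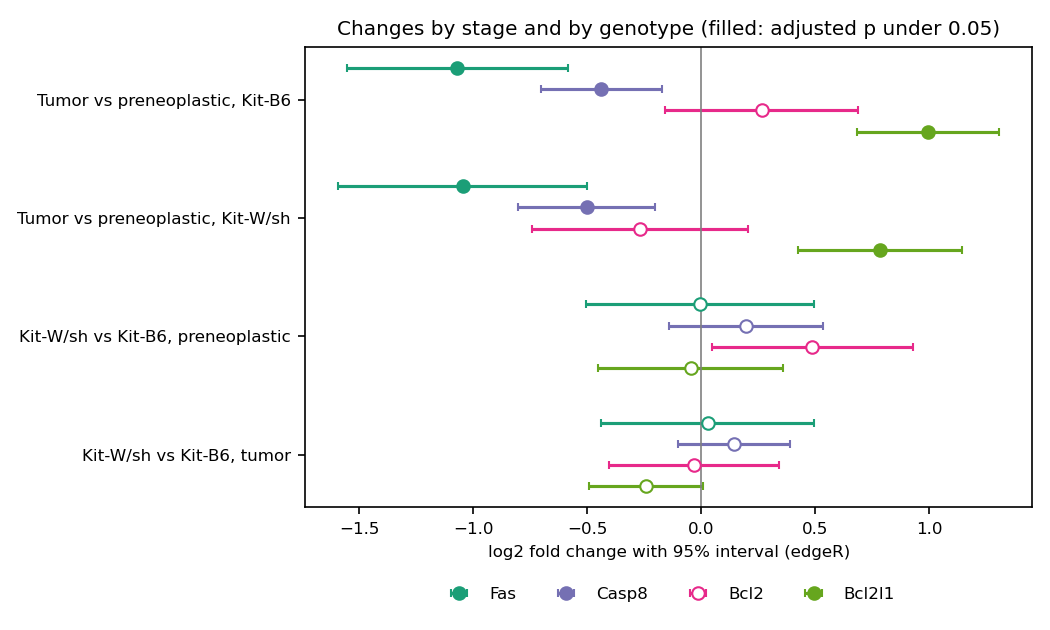
Log2 fold change (horizontal axis) with its 95% interval from edgeR for the 4 genes in the stage comparisons (tumor minus preneoplastic colon) and the genotype comparisons (Kit-W/sh minus Kit-B6), with filled points at an adjusted p under 0.05. The filled points are Fas, Casp8 and Bcl2l1 in both stage comparisons, and all genotype points are open.

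Between genotypes, the intervals show roughly how large a difference these samples would have allowed, and are less reliable for changes very near 0. In tumors 0 of the 4 genes passed, nor did any of the 799 genes tested (0%), of which 109 had an unadjusted p under 0.05, while DESeq2 called 24 (3%), none of them among the 4. Bcl2l1 was the closest in tumors, with a log2 fold change of -0.24 ± 0.12 (95% interval -0.49 to 0.01, unadjusted p = 0.0583 and adjusted p = 0.395 in edgeR). For Bcl2l1, 4 of the 6 Kit-W/sh tumors were below all Kit-B6 tumors, but the groups overlapped, as they did for all 4 genes. Tumor groups did not overlap for 0.626% of the genes tested. Fas differed by 0.03 ± 0.22 (95% interval -0.44 to 0.49), Casp8 by 0.14 ± 0.11 (-0.10 to 0.39) and Bcl2 by -0.03 ± 0.17 (-0.40 to 0.34). In preneoplastic colon 0 of 4 passed, beside 1 of 777 genes tested (0.129%) and 83 at an unadjusted p under 0.05, while DESeq2 called 20 (2.57%), again none of the 4.

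Bcl2 had the largest genotype difference of the 4 genes in preneoplastic colon, 0.49 ± 0.18 higher in Kit-W/sh (95% interval 0.05 to 0.93, unadjusted p = 0.0351 and adjusted p = 0.461 in edgeR). Both Kit-W/sh samples were above all 3 Kit-B6 samples for Bcl2 and for Casp8, but the groups did not overlap for 30% of the genes tested. Casp8 differed by 0.20 ± 0.14 (95% interval -0.14 to 0.54), Fas by -0.00 ± 0.21 (-0.50 to 0.50) and Bcl2l1 by -0.05 ± 0.17 (-0.45 to 0.36). The interaction was 0.02 ± 0.36 for Fas, -0.06 ± 0.19 for Casp8 and -0.21 ± 0.21 for Bcl2l1. It passed for 0 of 869 genes (0%), with 63 at an unadjusted p under 0.05 and 1 called by DESeq2 (0.115%).

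**Figure D3:**
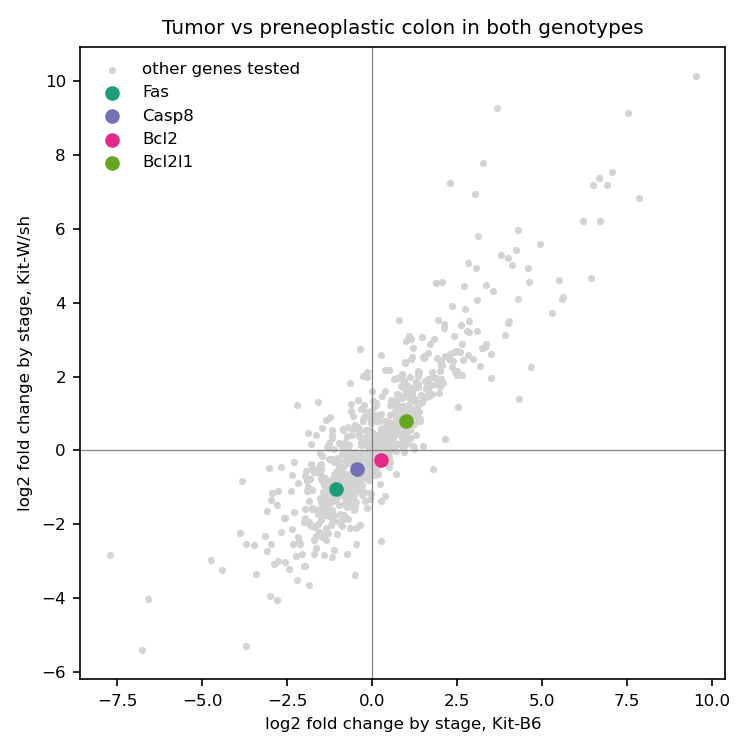
Log2 fold change between tumor and preneoplastic colon in Kit-B6 (horizontal axis) and Kit-W/sh (vertical axis) for each gene tested in both (grey) and for the 4 genes (colored). Fas and Casp8 lie below 0 and Bcl2l1 above 0 on both axes, all of them within the range of the other genes, and Bcl2 lies near 0.

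Ratios of 2 genes' counts within a library do not depend on scaling, and since amplicons differ in efficiency they compare samples and not the abundance of the genes. The ratio of Bcl2l1 to Fas was added after the levels had been seen and is given without a test. It was 2.21, 1.87 and 2.73 in Kit-B6 and 2.79 and 1.76 in Kit-W/sh preneoplastic colon. It was 11.2, 5.91, 8.90, 6.72, 11.4 and 18.4 in the Kit-B6 tumors and 7.19, 7.07, 7.07, 8.13, 6.79 and 11.8 in the Kit-W/sh tumors. The lowest tumor was well above the highest preneoplastic sample, and geometric means were 4.32 times as high in Kit-B6 and 3.55 times as high in Kit-W/sh tumors. Bcl2l1 was higher and Fas lower in every tumor, so this separation had to follow from the levels and is no further result. The ratio of Bcl2 to Bcl2l1 had geometric means of 0.312 and 0.450 in Kit-B6 and Kit-W/sh preneoplastic colon and 0.183 and 0.216 in their tumors. It did not overlap between stages in Kit-W/sh, whereas Kit-B6 tumor 3, at 0.302, reached the Kit-B6 preneoplastic range. The ratio of Fas to Casp8 had geometric means of 0.136 in Kit-B6 and 0.129 in Kit-W/sh tumors, beside 0.217 and 0.186 in preneoplastic colon.

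**Figure D4:**
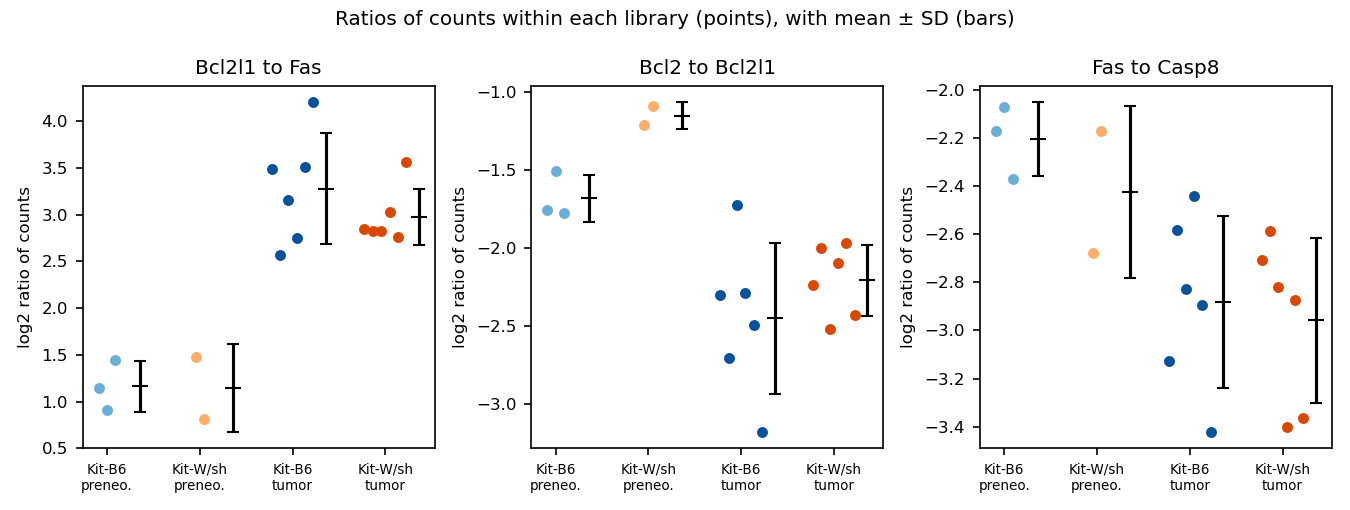
Log2 ratio of counts within each library (vertical axes) for Bcl2l1 to Fas, Bcl2 to Bcl2l1 and Fas to Casp8, by group, with the mean ± SD of the log2 ratios as a bar. Bcl2l1 to Fas separates all tumors from all preneoplastic samples, and the other ratios overlap between stages in one of the genotypes.

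The same control points held other measured genes, although only 19 of 79 genes on the cell death lists were on the panel, the 4 genes among them. Of the 15 others, 1 rose and 4 fell in Kit-B6 and 0 rose and 4 fell in Kit-W/sh, where 22.2% and 18.9% of all genes tested rose and fell in Kit-B6 and 20.9% and 18.8% in Kit-W/sh. Their median log2 fold changes of -0.73 and -0.39 compare with -0.00 and 0.08 over all genes tested. Among ligands, Lta, a lymphotoxin made by lymphocytes, fell in Kit-B6 by 1.54 on the log2 scale (edgeR, adjusted p = 0.0384) and was at -0.39 ± 0.68 in Kit-W/sh (adjusted p = 0.659). Ltb, its membrane-bound partner, was at -1.24 ± 0.56 and 0.92 ± 0.72, and neither passed. Fasl, the ligand of Fas, had 0 to 14 counts a library, too few to read a change from, with -0.89 ± 0.95 and -2.04 ± 0.96 by stage (edgeR, adjusted p = 0.458 and 0.101). Tnf did not pass either, at 0.83 ± 0.47 and 0.82 ± 0.53.

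The other death receptors did not all move like Fas. Tnfrsf10b, the mouse TRAIL receptor, rose in Kit-B6 tumors from 153 ± 29.0 CPM (SD, n = 3) to 300 ± 55.2 (SD, n = 6), by 0.96 ± 0.29 on the log2 scale (adjusted p = 0.0152 in edgeR). In Kit-W/sh its levels were 317 ± 76.6 (SD, n = 2) and 355 ± 124 (SD, n = 6), and the change of 0.15 ± 0.32 did not pass, with an interaction of -0.81 ± 0.42 (edgeR, adjusted p = 0.66). Tnfrsf25, a receptor found mostly on lymphocytes, fell by 1.05 in Kit-B6 (edgeR, adjusted p = 0.0274) and was at -0.94 ± 0.40 in Kit-W/sh (adjusted p = 0.0726). Among the kinases and regulators beside Casp8, Ripk1 was at -0.08 ± 0.16 and -0.31 ± 0.19, Ripk3 at 0.71 ± 0.30 and 0.43 ± 0.34, and Cyld, a deubiquitinase, fell in Kit-W/sh by 0.50 (edgeR, adjusted p = 0.0333) and was at -0.18 ± 0.16 in Kit-B6 (adjusted p = 0.362).

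Casp1, the inflammatory caspase, fell in both genotypes, by 1.52 in Kit-B6 (edgeR, adjusted p = 0.00158) and 1.87 in Kit-W/sh (edgeR, adjusted p = 0.000811). Pycard, the adaptor of the inflammasome, fell in Kit-W/sh by 1.53 (edgeR, adjusted p = 0.0052) and was at -0.75 ± 0.34 in Kit-B6 (adjusted p = 0.0855). Aim2, from the same list, did not pass, at -0.16 ± 0.13 in Kit-B6 and -0.27 ± 0.15 in Kit-W/sh (edgeR, adjusted p = 0.344 and 0.166). Gadd45a, a stress gene that p53 induces, fell by 0.73 (edgeR, adjusted p = 0.00911) and 1.25 (edgeR, adjusted p = 0.000621). Birc5, which encodes survivin, did not pass, at -0.09 ± 0.36 and 0.55 ± 0.44. None of the 12 listed pro-apoptotic Bcl2 relatives, such as Bax and Bak1, was among the genes measured, and they are not analysed here. Of the genes outside the 4, 0 of 14 tested passed between genotypes at either stage.

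**Figure D5:**
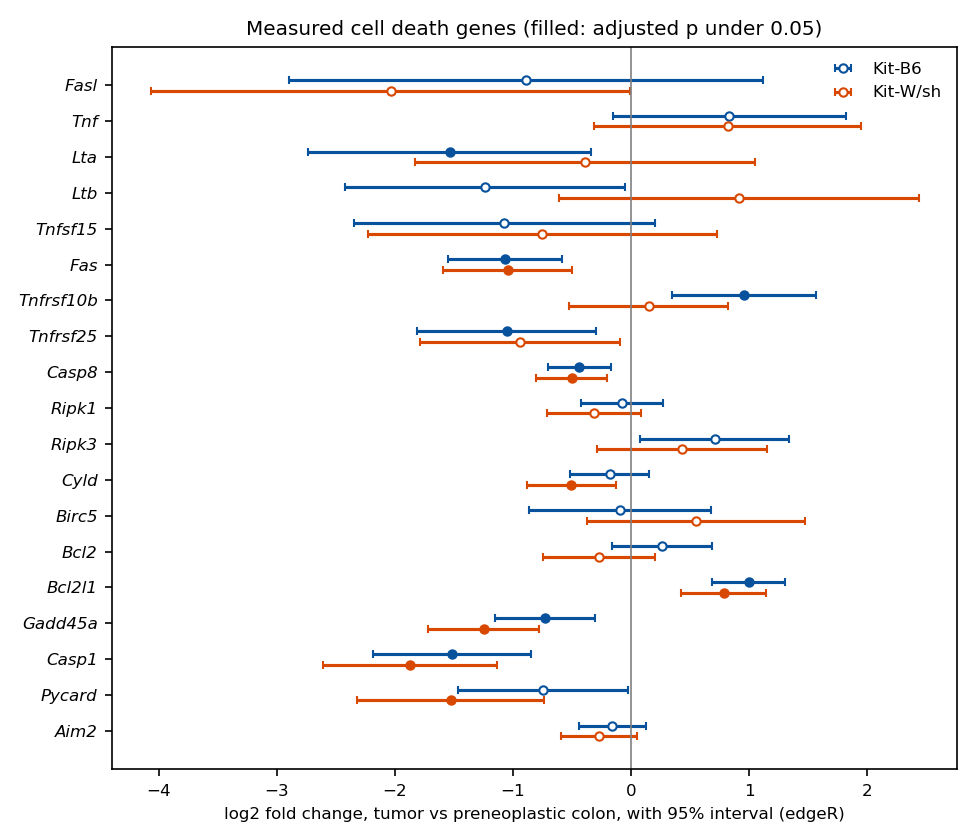
Log2 fold change between tumor and preneoplastic colon with its 95% interval from edgeR (horizontal axis) for the 19 measured genes of the cell death lists, in Kit-B6 (blue) and Kit-W/sh (orange), with filled points at an adjusted p under 0.05. Fas, Casp8, Bcl2l1, Casp1 and Gadd45a are filled in both genotypes.

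Some cell type markers also differed by stage. Of all genes tested by stage, 22.2% were higher and 18.9% lower in Kit-B6 tumors. In Kit-W/sh tumors 20.9% were higher and 18.8% lower. A count of markers near these shares is not read as a difference in a cell type. Fewer cells of a type and less RNA per cell cannot be told apart in these bulk samples. The summed level of 13 T cell markers was 673 to 1858 CPM in preneoplastic colon of Kit-B6 and 809 to 942 in that of Kit-W/sh, and 224 to 700 and 390 to 1081 in their tumors, with 4 and 1 of 13 lower by test. The 1081 came from the library labelled Kit-W/sh tumor 2, and the other 5 Kit-W/sh tumors reached 548. Trat1 went from means of 339 and 245 CPM in Kit-B6 and Kit-W/sh preneoplastic colon to 3.00 and 5.64 in their tumors. The T cell sums therefore follow Trat1 in part. Trat1 was the 1 T cell marker that passed in Kit-W/sh, where 4 of the 13 were on the higher side. A broad fall of T cell markers is therefore not read in Kit-W/sh. The summed level of 8 B cell markers was 150 to 2888 and 151 to 323 in preneoplastic colon and 33.1 to 804 and 18.2 to 122 in tumors, with 4 and 0 of 7 tested lower. The B cell limits of 804 and 122 came from Kit-B6 tumor 2 and the library labelled Kit-W/sh tumor 2, without which the highest tumors were at 55.2 and 67.9.

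Neutrophil markers were higher in tumors, and most macrophage markers that passed the test were too. The 5 measured neutrophil markers summed to 14.0 to 27.1 CPM in preneoplastic colon of Kit-B6 and 17.8 to 20.6 in that of Kit-W/sh, with Mpo at 0 in both, and to 76.6 to 391 and 386 to 944 in tumors, and 4 of 4 tested were higher in each genotype. The 9 macrophage markers summed to 1274 to 1393 and 1317 to 1598 in preneoplastic colon and to 1553 to 4139 and 2796 to 4425 in tumors, with 4 and 7 of 9 higher and 1 lower in each. Eosinophil markers differed from these: of 4 tested, 0 were higher and 2 lower in Kit-B6, and 1 was higher and 1 lower in Kit-W/sh, and their sums were 59.7 to 174 and 46.8 to 53.5 CPM in preneoplastic colon and 30.1 to 110 and 42.5 to 114 in tumors. The 3 epithelial markers summed to 50281 to 121469 and 88594 to 89023 in preneoplastic colon and to 25724 to 49940 and 25006 to 30637 in tumors. The preneoplastic sums were mostly Car4, a gene of mature colonocytes, which fell in both genotypes, with log2 fold changes of -3.71 (edgeR, adjusted p = 0.0176) and -5.30 (edgeR, adjusted p = 0.0045). The tumor sums were mostly Epcam, at 27523 ± 4297 CPM in Kit-B6 and 26940 ± 3298 in Kit-W/sh (SD, n = 6 each). The epithelial limit of 49940 was set by Kit-B6 tumor 4, which held 14913 CPM of Car4. The remaining Kit-B6 tumors held 181 to 3852 of Car4, and their epithelial sums ended at 33204. Kit-B6 tumor 4 also set the lower limits of 76.6 for neutrophil and 1553 for macrophage markers. Without that library the lowest Kit-B6 tumor sums were 265 and 2327. Muc1, a mucin and the remaining epithelial marker, rose in Kit-B6 by 2.52 on the log2 scale (edgeR, adjusted p = 0.000648) and was at 1.17 ± 0.50 in Kit-W/sh (adjusted p = 0.0711). Of 4 natural killer cell markers tested, 2 were lower in each genotype and 1 was higher in Kit-W/sh. The 4 stromal markers had 2 higher in each genotype, with 1 lower in Kit-B6 and 2 lower in Kit-W/sh, and of 3 endothelial markers 1 and 2 were higher. The part of these markers in the stage differences of the 4 genes was not tested.

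Across the 17 libraries, the genes whose levels ran most like each of the 4 are given as a description, since the points share library and depth and the differences between groups enter the correlation. For Fas they were Calb2, which encodes calretinin (Pearson r = 0.95), Btnl2, a butyrophilin relative (0.93), and Psme2, a proteasome activator subunit (0.92), and with each group's mean taken off r was 0.87, 0.75 and 0.64. For Casp8 they were Calr, which encodes calreticulin (0.93), Sigirr, an inhibitory receptor of the interleukin 1 family (0.92), and Qrsl1, a mitochondrial amidotransferase subunit (0.89), and without group means 0.76, 0.67 and 0.49. For Bcl2l1 they were Slc7a8, an amino acid transporter (0.95), Itgb1, integrin beta 1 (0.94), and Ceacam11 (0.93), whose amplicon may capture reads of near-identical relatives, and without group means 0.73, 0.59 and 0.79. Ceacam11 had 0 or 1 counts in the preneoplastic libraries and 1 to 34 in tumors, and Btnl2 had 1 to 17 in tumors. Their correlations therefore rest on few counts. Calb2 had 1 to 85 counts in Kit-B6 and 5 to 45 in Kit-W/sh tumors, and Calr had 5 to 24 and 13 to 59. The correlations of Calb2 and Calr thus rest in part on few counts. For Bcl2 the correlations over the 17 libraries were lower: its highest were Tia1, an RNA-binding protein (0.65), and the peptidases Tpp2 (0.64) and Lnpep (0.62), and without group means 0.61, 0.72 and 0.57.

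Among the 4 genes themselves, Fas and Bcl2l1 ran opposite to each other, with r = -0.90 over 17 libraries and -0.56 with group means taken off. Fas and Casp8 had r = 0.75, which was 0.22 without group means, and Casp8 and Bcl2l1 had -0.79, which was -0.05. Kit-B6 tumor 6 had both the lowest Fas, at 135 CPM, and the highest Bcl2l1, at 2480. How far the -0.56 rests on that 1 library was not tested. Among the Kit-W/sh tumors, tumor 6 had the lowest Fas, at 166, and the highest Bcl2l1, at 1952. Kit-W/sh tumor 4, however, had Fas at 177 with the lowest Bcl2l1 of that group, at 1436. An opposite course within each group is therefore not read from these values.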

How the data were processed

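Colon samples were amplified with a QIAseq targeted mouse immuno-oncology panel, per the labels. The authors deposited whole-number counts per gene, 1 table a sample, of 988 genes and 5 control amplicons at 0 in every library, which were left out. Whether reads or molecular tags were counted, and the aligner and counter, are not given in the sources used here. The submitters' processing notes name mm9 and DESeq2. Groups came from the titles. The members and gene lists were chosen with earlier results of these data known.

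Counts were tested in R 4.3.3 with edgeR 4.0.16: TMM scaling, filterByExpr (minimum count 10, minimum total 15), robust quasi-likelihood F test, two-sided, Benjamini-Hochberg adjustment over all genes tested, threshold 0.05. Genotype comparisons used the libraries of their own stage, and stage and interaction came from 1 fit of 17 libraries in 4 groups. Levels are CPM after TMM scaling over all 17 libraries, errors of log2 fold changes are standard errors, and counting errors cover counting only. Likeness between genes used log2(CPM + 1). The fits were tested on simulated data. Alternatives were other scalings (unscaled totals, DESeq2 1.42.0 size factors, the reference genes Rpl13a and Tfrc), no filter, DESeq2, a replicate block, other samples in the fit, summing Kit-B6 tumors 4 and 5, and each library left out. Named genes were the 4, up to 4 genes with the smallest p of each list, the 3 closest genes to each of the 4, and Kit and Cpa3. Genes named beyond that rule were chosen after their values were seen. Figures were drawn with matplotlib 3.10.9.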

Additional observations from a re-analysis of the deposited data

Results flagged for a closer look

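Kit-B6 tumor 6 lay far above the other 5 Kit-B6 tumors for Bcl2l1, at 2480 CPM beside 1734 to 1977 in the others. Without it the stage change of Bcl2l1 in Kit-B6 was 0.92 on the log2 scale and still passed edgeR's test (adjusted p = 0.000143), and the genotype difference in tumors was -0.16. The log2 ratio of Bcl2l1 to Fas was 3.56 in Kit-W/sh tumor 6, beside 2.76 to 3.02 in the other 5 Kit-W/sh tumors. Chance alone marks about 1 in 20 groups in this way, and 14 values in tumor groups were looked at, of which these 2 were marked.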

How the results depend on the processing

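Of 152 results of the 4 genes under settings other than left-out libraries, 139 kept their direction and side of the threshold. With unscaled library totals, Casp8 no longer passed by stage (-0.18 in Kit-B6, -0.25 in Kit-W/sh), Bcl2 passed in Kit-B6 (0.50), and 2 differences near 0 changed sign, Bcl2 in tumors (0.0017) and Fas in preneoplastic colon (0.0356). Scaling by Rpl13a and Tfrc ended the calls of Casp8 (-0.23 and -0.35) and, in Kit-W/sh, of Fas (-0.88, adjusted p = 0.0792) and Bcl2l1 (0.94, adjusted p = 0.0519), turned Fas in tumors to -0.0243, and called 180 genes in Kit-W/sh. The share of higher calls went from 54.1% in Kit-B6 and 52.8% in Kit-W/sh to 73.0% and 70.1% with unscaled totals and 66.1% and 61.1% with the reference genes. The causes were not tested. A fit of all 17 libraries gave 0.0195 for Fas in preneoplastic colon. Genes called between genotypes were 24 in tumors and 20 in preneoplastic colon with DESeq2, which called 1 for the interaction, and 0 in preneoplastic colon with unscaled totals, with the replicate block and in the fit of 17.

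The replicate block gave 0.0031 for Bcl2 in tumors and 0.0427 for Bcl2l1 in preneoplastic colon and changed no call of the 4 genes. Whether replicate numbers pair the samples was not settled. Same-numbered samples had correlations of deviations of -0.25 to 0.42 over 6 tumor pairs, 3 of them over 0.1. Tumor pairs 2 and 5 had 0.42 and 0.33, and 2 of 6 tumors of each genotype correlated best with their own number. The preneoplastic pairs had -0.18 and -0.12. With 2 Kit-W/sh preneoplastic samples the deviations are exact opposites, so those values cannot decide it. Summing Kit-B6 tumors 4 and 5, whose deposited names differ only in the last number, changed no call of the 4 genes.

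Of 272 results with 1 library left out, 248 kept direction and side of the threshold, 4 lost a call, all in Kit-W/sh, and 20 changed sign, none of them a call. In Kit-W/sh by stage the ranges were -1.25 to -0.79 for Fas, -0.54 to -0.44 for Casp8 and 0.69 to 0.90 for Bcl2l1, with 132 to 385 genes called. Between genotypes they were -0.0697 to 0.14 for Fas and -0.13 to 0.10 for Bcl2 in tumors, and -0.27 to 0.18 for Fas and -0.18 to 0.0377 for Bcl2l1 in preneoplastic colon, with 0 to 16 genes called. For the interaction of Fas the range was -0.18 to 0.27, with 0 to 2 genes called. Depth limits Fasl, with 0 to 14 counts a library.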
